A study of Sus scrofa with 2 samples.

Results

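The inflammatory cytokines IL1B, IL1A, IL6, IL18 and TNF and the chemokine CCL2 were examined in the ovary of minipigs and conventional pigs. These 6 genes, of 2459 that could be named on the array, were taken by the RefSeq accessions of their probes, and 11 probes measured them. Ovarian tissue from which corpora lutea had been removed was collected on day 15 of the estrous cycle from Yorkshire sows, the conventional pigs, and from Midget minipigs of the same age. RNA of each breed was hybridised to 1 single-colour porcine Agilent array, called the minipig array and the conventional array below, and whether that RNA came from 1 animal or from a pool is not given in the sources used here. The comparison asks how the ovary of the breeds differs at the stage when corpora lutea regress and follicles regress or develop.

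The arrays shared a slide, and both gave similar overall signals. The 75th percentile of intensity was 494 on the minipig array against 513 on the conventional array, and 88.1% and 85.2% of probes, respectively, were well above background. On both arrays, all 11 cytokine and CCL2 probes were well above background. A level below is log2 intensity minus the array's 75th percentile, and a difference is the level on the conventional array minus that on the minipig array. A probe was compared only with itself, since the brightness of different probes is not on a common scale. For cell markers, the summed intensity of a list is given on each array with the gene that made up the largest part of it, which describes the sum and not the amount of one RNA against another. With 1 array per breed there is no replicate check, no test was run, and the values describe these 2 arrays only. The spread used below was that among repeated spots of 42 probes within an array, which gave an SD of 0.25 for a log2 difference. The spread of spike-in controls between the arrays is given further below. Neither holds variation between animals. Feature Extraction's own error of a log2 difference, made from its error of each signal, is given for some of the probes.

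The breed labels of the arrays were in conflict. The deposited log2 table holds 5617 probes, and its minipig column matched the scanner values of the conventional array after a constant was subtracted, with a largest departure of 0.02. Against the minipig array the largest departure was 11.6. The labels of the scanner output are used here, so each direction is the reverse of that given by the table, and which assignment is right was not tested. The tissue was also checked against its markers. FSHR, the follicle-stimulating hormone receptor of granulosa cells, had an intensity of 456 on the minipig array against 38.1 on the conventional array. INSL3, a theca cell hormone, had 35583 and 2729, and the fibroblast matrix gene DCN had 19646 and 15958. Markers of granulosa, theca and stroma were therefore present on both arrays.

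Interleukin-1, interleukin-6 and tumor necrosis factor are secreted mainly by activated leukocytes, and also by ovarian stromal and follicular cells. They act on surface receptors that switch on NF-kB or STAT3, and CCL2 is a chemokine induced by them that attracts monocytes through its receptor CCR2. In the ovary these signals are known from ovulation, an inflammation-like process, and from luteal regression, in which macrophages enter the tissue. IL1B and IL18 are made as inactive precursors that CASP1 cleaves, and IL1A is active without this cleavage. IL1A and IL1B are neighbouring genes on the same pig chromosome.

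The 6 genes did not all differ in the same direction. IL1B was far lower on the conventional array, IL6 and CCL2 were higher there, IL18 was higher by less, and IL1A and TNF differed by less than the SD of repeated spots. Of the 6 genes, 2 were past 2-fold to the conventional side, CCL2 and IL6, where 11.7% of the 2363 named genes with a value reached that size. Past 2-fold to the minipig side was 1 gene, IL1B, against 7.96% of all genes. Among probes, 5 of the 11 were past 2-fold to the conventional side and 1 to the minipig side, against 7.48% and 8.94% of 38883 probes. The 5 were the 3 probes of IL6 and the 2 of CCL2, so they repeat the count of genes. In RNA of whole tissue, fewer cells of a type and less RNA per cell cannot be told apart. The median log2 difference of the 6 genes was 0.48, and that of all genes was 0.04. The members were few and were picked with results known, so the counts describe them and carry no test.

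**Figure D1:**
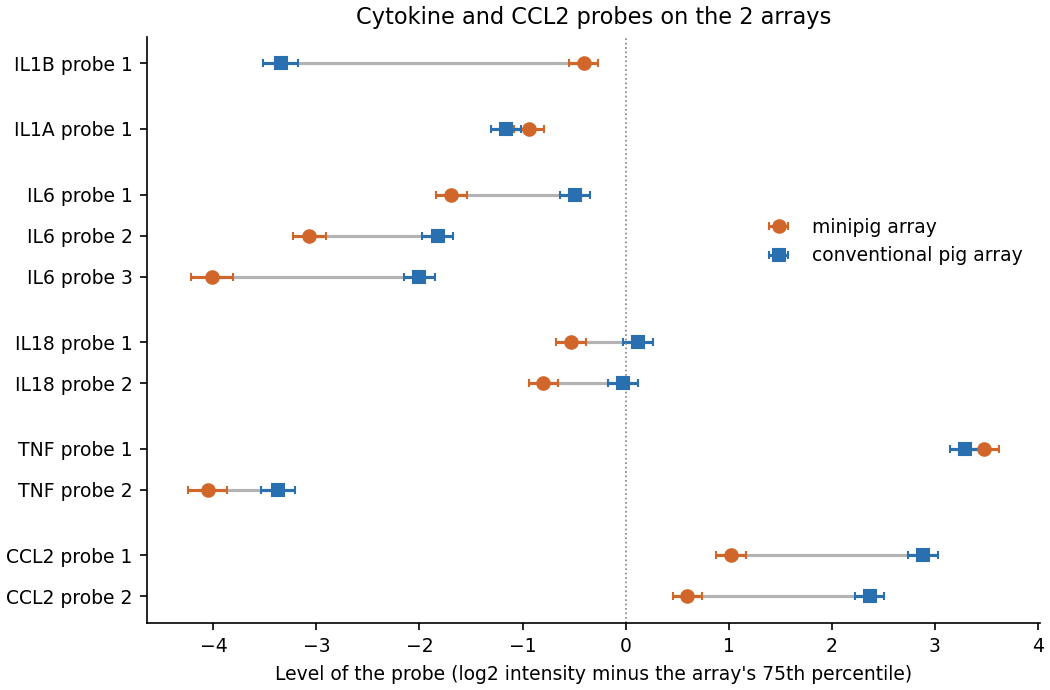
Each line joins the levels of 1 probe on both arrays, as log2 intensity minus the array's 75th percentile (dotted line), with circles for the array labelled minipig, squares for the array labelled conventional pig, and bars for Feature Extraction's error of the signal. The IL1B probe lies at -0.41 for minipig and -3.35 for conventional pig, and the IL6 and CCL2 probes lie the other way round; the deposited table exchanges the breeds.

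IL1B encodes interleukin-1 beta, a fever-inducing cytokine secreted by monocytes and macrophages. Its 1 probe had an intensity of 372 on the minipig array against 50.4 on the conventional array. The minipig array was thus the high one, by 7.67-fold, and by less with normexp, where the log2 difference was -2.07. As reported, the log2 difference was -2.94, with a Feature Extraction error of 0.22, or 11.6 times the SD of repeated spots. Of the 2363 genes, 16, or 0.68%, lay further to the minipig side. The intensity on the conventional array was still above the lowest one that counted as well above background there, 11.5, so the difference is measured on both sides.

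A second gene, IL1B2, is a close copy of IL1B in the pig and was looked at after the value of IL1B was seen. Its 3 probes had log2 differences of -2.34, -0.83 and -0.42. The minipig array was the high one for each of them, and they spanned a wide range. The probe with the difference nearest to that of IL1B had intensities of 334 on the minipig array against 68.2 on the conventional array. Another of the 3 had 1914 and 1482. Whether a probe of either gene binds transcripts of the other was not tested, as probe sequences are not used here.

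IL1A encodes interleukin-1 alpha, which binds the same receptor as IL1B and is also kept inside cells and released when they are damaged. Its 1 probe had an intensity of 258 on the minipig array against 230 on the conventional array. These are close to each other, and the log2 difference of -0.22 was smaller than the SD of repeated spots and about as large as the Feature Extraction error of 0.21. The neighbouring genes IL1A and IL1B therefore had very different sizes of change on the same arrays, and the difference of IL1A cannot be told from none.

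IL6 encodes interleukin-6, which drives the acute phase response and acts through the shared receptor chain IL6ST. Its first probe had 153 on the minipig array against 364 on the conventional array. Its second had 58.9 and 145, and the last had 30.5 and 128. The conventional array was the high one for all 3 probes. Their log2 differences were 1.20, 1.24 and 2.01. The gene value, the median over the probes, was 1.24, or 2.37-fold, and 190 genes, or 8.04%, lay further to the conventional side. With normexp background correction, which adds an offset to each signal, the difference was 0.90 and IL6 was no longer past 2-fold.

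IL18 encodes interleukin-18, a relative of IL1B that induces interferon gamma in T and NK cells. Its probes had 342 and 285 on the minipig array against 556 and 503 on the conventional array. Both were higher on the conventional array, and their log2 differences of 0.65 and 0.77 lay within 0.12 of each other. The gene difference of 0.71, or 1.63-fold, was 2.79 times the SD of repeated spots, and 19.1% of genes lay further to the conventional side. IL18 and IL1B, which share their processing enzyme, thus differed in opposite directions.

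TNF encodes tumor necrosis factor, a cytokine shed from the cell surface by ADAM17. Its probes disagreed. The first had 5524 on the minipig array against 5019 on the conventional array, a log2 difference of -0.19. The second had 29.7 and 49.6, a difference of 0.69 with a Feature Extraction error of 0.25. The arrays are close on the first probe and the conventional array is higher on the second, so no direction is given for the gene. The median over both was 0.25, and their differences were 0.88 apart. Among 1220 genes with several probes, the median distance between the lowest and the highest probe was 0.37, and in 72.0% of them all probes had the same direction.

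CCL2 encodes monocyte chemoattractant protein. Its first probe had an intensity of 1005 on the minipig array against 3788 on the conventional array, and its second had 749 and 2646. The conventional array was the high one for both. The log2 differences were 1.86 and 1.77, within 0.09 of each other, and each had a Feature Extraction error of 0.20. The gene value of 1.81, or 3.52-fold, was 7.14 times the SD of repeated spots, and 91 genes, or 3.85%, lay further to the conventional side. CCL2 was the gene of the 6 that was furthest to the conventional side.

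**Figure D2:**
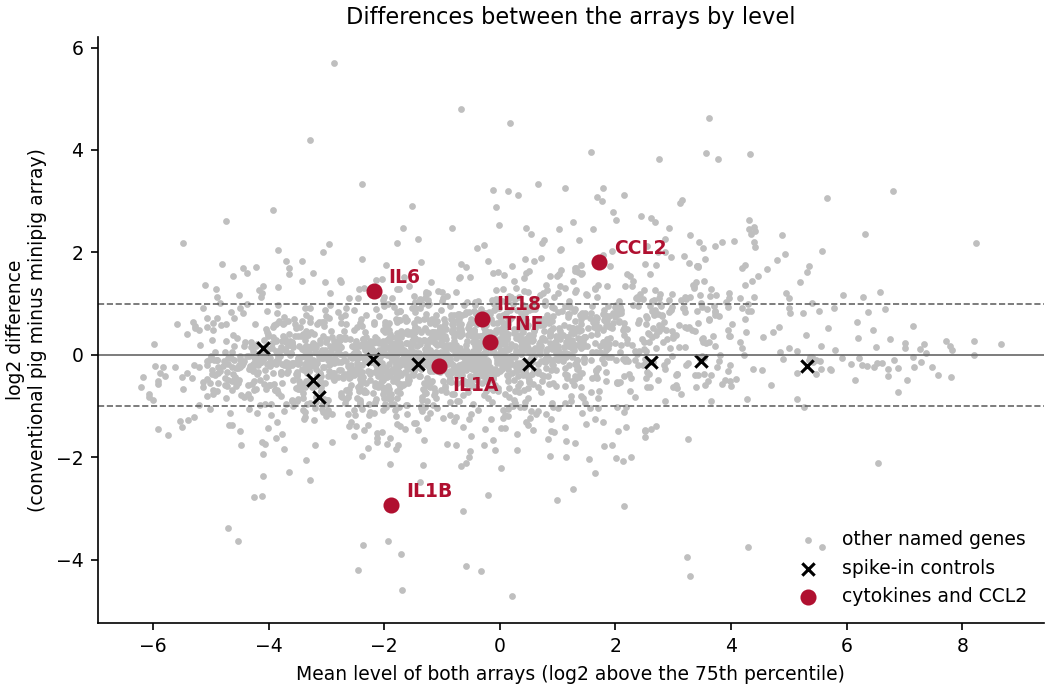
Each grey point is 1 of the other named genes, by its mean level on both arrays (log2 above the 75th percentile) and its log2 difference (conventional pig minus minipig array, scanner labels, bounds included); red points are the cytokines and CCL2, crosses are the 9 spike-in controls well above background on both arrays, and dashed lines mark 2-fold. IL1B lies at -2.94 and CCL2 at 1.81, outside the range of the spike-ins, which runs from -0.82 to 0.14.

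The spike-in controls, foreign transcripts added to each RNA sample, measured how far the centring held. Of 10 such controls, with 32 spots each, 9 were well above background on both arrays, with differences from -0.82 to 0.14 and a median of -0.18. IL1B, IL6 and CCL2 lay outside this range, and so did IL18 and TNF at 0.71 and 0.25, while IL1A lay inside it. Centring the arrays on these spots moved the median of all genes by 0.18, and centring on the median of all probes moved it by 0.15. The share of the genes past 2-fold that was higher on the conventional array went from 59.6% to 73.9% and 72.2%, respectively. That of the probes went from 45.6% to 61.9% and 59.8%, and to 58.9% with normexp. A list median below that is smaller than these shifts has no settled sign. Relative to the spike-ins, the difference of IL1B was -2.76 and that of CCL2 was 1.99.

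By its size, the difference of IL1B was most like those of 3 other genes, out of 1156 with several probes that all cleared background on each array, and over 2 arrays only. HSP70.2, an inducible chaperone, was at -2.84, a distance of 0.10. PDK4, a mitochondrial kinase that slows glucose use, was at -3.04 over 9 probes, also a distance of 0.10. FCN2, a lectin of the complement system, was at -2.74, a distance of 0.20. All 3 were higher on the minipig array, which their selection by closeness to IL1B fixed in advance.

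The receptors and processing enzymes were only partly named on the array. Of 22 other genes of the IL1 and IL18 system, 2 had a value, neither past 2-fold. Their median of -0.43 rests on 1 difference within the SD of repeated spots and 1 bound, explained below, so it gives no direction. CASP1, the protease that cleaves the precursors of IL1B and IL18, had an intensity of 200 on the minipig array against 176 on the conventional array. Its difference of -0.24, with a Feature Extraction error of 0.21, was within the SD of repeated spots, so the enzyme differed far less than IL1B. For IL18R1, the ligand-binding receptor chain of IL18, 1 probe was well above background on the minipig array only, at 17.5 against 11.7. This gives a bound of at least 1.55-fold to the minipig side, a log2 difference of -0.63 whose Feature Extraction error was 0.50. In a bound, the dim array stands at the lowest intensity that its probes well above background had, or at the probe's own where that is higher. The receptors and antagonists IL1R1, IL1R2, IL1RAP, IL1RN, IL18RAP and IL18BP and the inflammasome parts NLRP3 and PYCARD had no value and were not analysed here.

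Of 18 genes of the IL6 system, 8 had a value, with a median of 0.27. Past 2-fold were 2, both to the conventional side, where 11.7% of all genes reached that size. IL6ST, the signal-transducing receptor chain, had intensities of 987 and 338 on the minipig array against 2971 and 1208 on the conventional array. Both probes were higher on the conventional array, and the gene difference was 1.66, or 3.16-fold. JAK2, a kinase bound to cytokine receptors, lay just past the cutoff, with probes at 1.20 and 0.80. With normexp, 1 gene of the list was past 2-fold. The ligand-binding chain IL6R was at -0.06, with probes between -1.06, a bound, and 0.36. Its probes gave no common direction. SOCS3, the feedback inhibitor that IL6 signaling induces, was at 0.23, and STAT3 was at 0.30 with probes from -0.25 to 0.98. JAK1, another kinase of the receptor, lay furthest to the minipig side, at -0.63, so the list held genes on both sides.

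Of 16 genes of the TNF system, 6 had a value, none was past 2-fold, and the median was 0.08. TNFRSF1A, the widely expressed receptor, was at 0.69, or 1.61-fold higher on the conventional array, with its 3 probes between 0.42 and 0.84. TNFRSF1B, the receptor more confined to leukocytes, was at -0.19, and ADAM17 was at -0.08. Both differences were under the SD of repeated spots. Of 25 genes of NF-kB signaling, 10 had a value, again with none past 2-fold and a median of 0.03. The adaptor MYD88 was highest on the conventional side at 0.75, and the kinase IKBKB on the minipig side at -0.35.

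CCR2, the receptor of CCL2, was measured by 1 probe, with an intensity of 385 on the minipig array against 1880 on the conventional array. It was 4.71-fold higher on the conventional array, the same array on which its ligand was high, with a log2 difference of 2.24 and a Feature Extraction error of 0.20. CCL8, another ligand of CCR2 and named after its value was seen, was at -1.22, to the minipig side, with 445 and 198. Other chemokines went both ways. Of 54 other chemokines and chemokine receptors, 31 had a value, 14 higher on the conventional array and 17 on the minipig array, with a median of -0.05 that became 0.10 with median centring and 0.13 with spike-in centring. Past 2-fold were 8 on the minipig side and 3 on the conventional side, and 3 and 2 with normexp. CCL26, an eosinophil attractant, was at -3.71, with intensities of 346 on the minipig array against 27.4 on the conventional array. CCL4, which attracts lymphocytes and monocytes, was at -2.49, with 450 and 83.3. CXCL2, a neutrophil attractant, was at -1.55 with both probes at that value, and CCR3, a receptor of CCL26, was at least 3.83-fold to the minipig side. On the conventional side, beside CCR2, were CXCR4 at 1.89 and AMCF-II, which draws neutrophils, with a bound of 6.14-fold or more. Of all genes, 7.96% were past 2-fold on the minipig side and 11.7% on the conventional side. The 3 of 31 on the conventional side, the side of CCL2, were thus no larger a share than that of all genes. The counts carry no test.

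**Figure D3:**
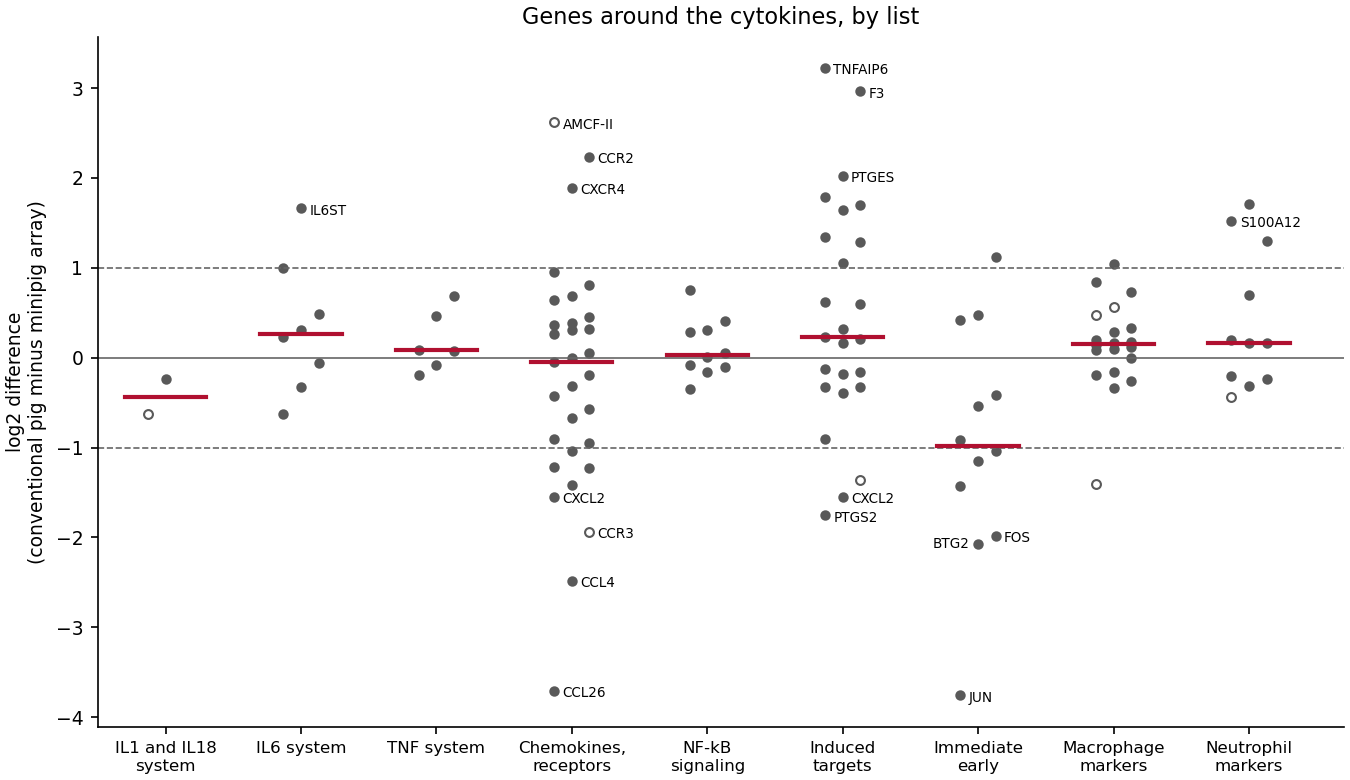
Each point is the log2 difference (conventional pig minus minipig array, scanner labels) of 1 gene of the list named below it, an open point is a bound, the red line is the median and dashed lines mark 2-fold; some of the genes at 1.5 or more either way are named. The medians lie between -0.98 for immediate early genes and 0.27 for the IL6 system, and induced targets and chemokines reach past 2-fold on both sides.

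Genes known to be induced by these cytokines were on a further list. Of 37, 25 had a value, with a median of 0.23, and 9 were past 2-fold on the conventional side and 3 on the minipig side. Among all genes with a value, the shares were 11.7% and 7.96%, respectively. TNFAIP6, a secreted protein that binds hyaluronan, was at 3.22, with an intensity of 149 on the minipig array against 1439 on the conventional array. F3, tissue factor, was at 2.96, and PTGES, a prostaglandin E synthase, at 2.02. These 3 lay furthest to the conventional side among the induced targets. PTGS2, the inducible cyclooxygenase that feeds PTGES, was at -1.75, with 1 of its probes a bound. CXCL2 was at -1.55, and MMP1, a collagenase, was at least 2.57-fold to the minipig side. With normexp, 8 were past 2-fold on the conventional side and 1 on the minipig side. Some of these genes are also known as products of follicle cells.

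Immediate early genes are transcription factors and early response genes that many stimuli induce within minutes. Of 25, 12 had a value, 9 to the minipig side and 3 to the conventional side, with a median of -0.98, or -0.63 with normexp. Past 2-fold were 6 on the minipig side, or 4 with median or spike-in centring, and 1 on the conventional side. Among all 2363 genes with a value, 1123 lay to the minipig side and 1240 to the other, with 7.96% and 11.7% past 2-fold. JUN was at -3.76, with intensities of 86078 on the minipig array against 6600 on the conventional array, BTG2 at -2.07, FOS at -1.98 and KLF6 at -1.43, while IER3 was at 1.13. Of 18 heat shock genes, 9 had a value, with a median of -0.10. HSP70.2 and HSPA6 were past 2-fold on the minipig side, at -2.84 and -1.33, and HSPB1 on the conventional side, at 2.35. The part of these genes in the difference of IL1B was not tested. No value was had for any of 11 genes of message decay.

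Leukocyte markers were compared because leukocytes make these cytokines. The shares of all genes past 2-fold were 7.96% on the minipig side and 11.7% on the conventional side. Of 30 macrophage markers, 20 had a value, with a median of 0.15, and their summed intensity was 9263 on the minipig array against 11081 on the conventional array. CD14, a monocyte surface receptor, was at 1.04 and CD163, a scavenger receptor, at -0.25, with SIGLEC1 at least 2.65-fold to the minipig side. CD14 and SIGLEC1, 1 on each side, were the 2 past 2-fold, with 0 on either side with normexp and 2 on the conventional side with quantile, loess or spike-in centring. FCGR3A, which also stands among the neutrophil markers, was the largest part of the sum of either list on both arrays. Of 21 neutrophil markers, 11 had a value, with a median of 0.16 and sums of 2638 and 3417. Past 2-fold were 3 on the conventional side, or 1 with normexp, and 0 on the minipig side. S100A12 and S100A8 were higher on the conventional array at 1.52 and 1.30, S100A9 was at -0.32, and PMAP-23 was at least 1.36-fold to the minipig side. Of 22 markers of T and NK cells, 11 had a value, with a median of 0.17 and sums of 1667 and 1642, and GZMB was the largest part of both sums. CD247 was at 1.23, CD3E at 0.22 and CD3G at -1.31, with 1 of its probes a bound. The leukocyte marker PTPRC was not named on the array, and the part of leukocyte numbers in the cytokine differences was not tested.

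Markers of other blood and vessel cells were thin. Of 13 markers of B and plasma cells, 1 had a value, CD79A, at 71.9 and 69.2, a difference of -0.11. Of 8 mast cell markers, 3 had a value, with sums of 4012 and 2271. KIT, also expressed by oocytes, was the largest part of the sum for minipig and was at -2.04, and GATA2 was the largest part of the other and was at 0.43. Of 11 red cell and platelet markers, 4 had a value, with sums of 1850 and 2056, ITGA2B the largest part of both at -0.01 and PPBP at 1.83. Of 15 endothelial markers, 7 had a value and each was to the conventional side, with a median of 0.60. Of all 2363 genes with a value, 1240 lay to that side, and 11.7% were past 2-fold there. The sums of the endothelial markers were 2992 and 5822. ENG was the largest part of the sum for minipig and SELP of the other, and SELP, an adhesion receptor for leukocytes, was past 2-fold at 1.64.

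Markers of follicle and luteal cells were compared in the same way. Among all genes with a value, 7.96% were past 2-fold on the minipig side and 11.7% on the conventional side. Of 17 granulosa markers, 12 had a value, with a median of -1.08, 8 past 2-fold on the minipig side, or 5 with median or spike-in centring, none on the other, and sums of 48615 and 23134. CYP19A3 was at -4.11, FSHR at -3.63, HSD17B1 at -2.96, INHA at -2.61 and AMH at -1.03. CYP19A1, an aromatase gene like CYP19A3 and named after its value was seen, was at 0.09 with probes from -0.34 to 0.52. FGFR2 was highest on the other side at 0.21, and SERPINE2 was the largest part of both sums. Of 11 theca markers, 6 had a value, with a median of -0.88, 3 past 2-fold on the minipig side and 1 on the other, and sums of 49610 and 82052. INSL3, the largest part of the sum for minipig, was at -3.76, CYP17A1 at -1.74 and ANPEP at -1.13, while STAR, the largest part of the other, was at 3.07. Of 16 luteal markers, 13 had a value, with a median of 2.12, 7 past 2-fold on the conventional side and none on the other, and sums of 96815 and 262526. SCP2 was at 4.52, HSD3B1 at 3.11, STAR, shared with the theca markers, at 3.07 and CYP11A1 at 2.63. The 6 other luteal markers were short of 2-fold. Among them were RLN2 at 0.45 and OXT at 0.33, with PRLR at -0.55 and LHCGR, the lowest, at -0.62. OXT was the largest part of the luteal sum for minipig and STAR of the other. Of 13 markers of stroma and smooth muscle, 4 had a value, with a median of -0.84 and sums of 51056 and 47630. DES was 3.99-fold to the minipig side and CNN1 2.49-fold, and ACTA2, the largest part of both sums, was at 0.10. On the array on which IL6 and CCL2 were high, 7 of 13 luteal markers were past 2-fold, although corpora lutea had been removed. On the array on which IL1B was high, 8 of 12 granulosa markers were past 2-fold. The part of these markers in the cytokine result was not tested.

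**Figure D4:**
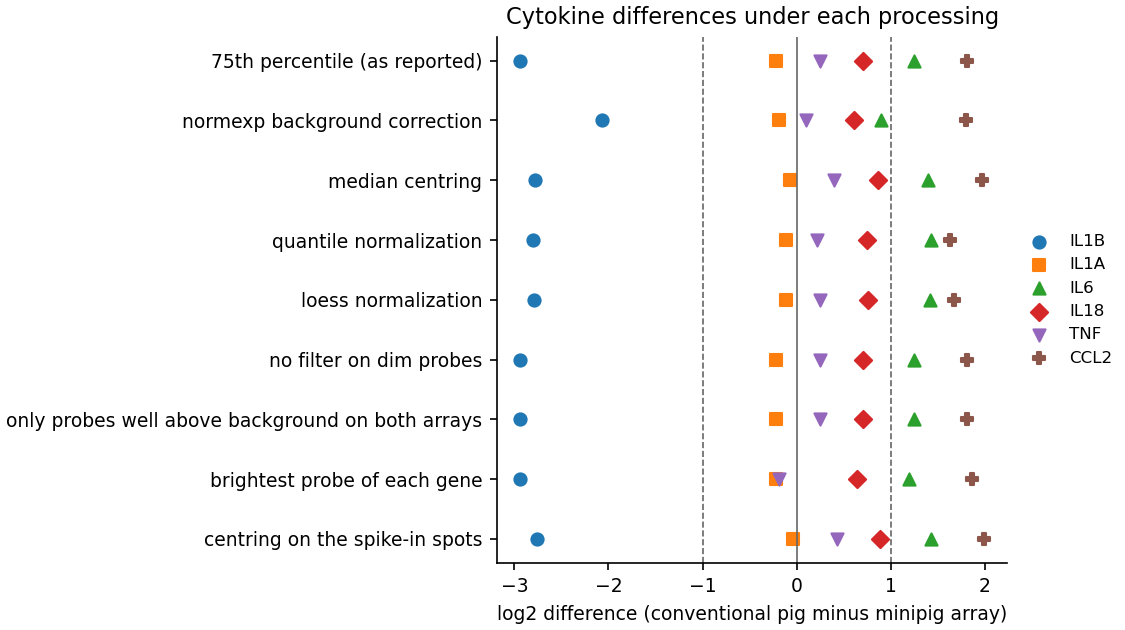
Points are the log2 differences (conventional pig minus minipig array, scanner labels) of the 6 genes under the reported processing and 8 alternatives, with dashed lines at 2-fold. IL1B stays between -2.94 and -2.07 and CCL2 between 1.64 and 1.99, IL6 falls short of 2-fold with normexp at 0.90, and TNF changes sign with its brightest probe at -0.19.

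The 8 alternatives on the scanner values did not all bear on these genes. The 2 filters on dim probes could not move them, as all their probes were well above background, and the choice of the brightest probe could not move IL1B or IL1A with 1 probe each. Under the 5 others, normexp and 4 ways of centring or normalizing, the directions of IL1B, IL6, IL18 and CCL2 held. Median and spike-in centring shifted differences by about 0.15 and 0.18, too little to reverse any of these, so they do not check direction. Over all 8, IL1B ran from -2.94 to -2.07, IL6 from 0.90 to 1.43, and CCL2 from 1.64 to 1.99. IL18 ran from 0.61 to 0.89 and stayed short of 2-fold throughout. IL1A ran from -0.22 to -0.04, within the SD of repeated spots, and TNF from -0.19 to 0.43, so no direction is given for either. The deposited table lists the 1 probe of IL1B, all 3 of IL6 and both of CCL2 and no probe of IL1A, IL18 or TNF, and every probe it lists is past 2-fold.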

How the data were processed

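The arrays were scanned and read with Agilent Feature Extraction 10.7.3.1, per the file headers. The authors deposited an intensity per spot that is corrected for background and spatial trends and not normalized between arrays. A table of log2 values was also deposited. For normalization the study names Agilent GeneSpring software, with MA and scatter plots, and not the scaling method. Against the scanner values it is log2 intensity minus 1 constant per array, with column medians of -0.93 for minipig and -0.66 for conventional pig, by its labels. The table was used only as an alternative.

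Control spots and outlier-flagged spots (5 on the minipig array, 10 on the other) were left out, log2 intensities of repeated spots were averaged, and the 75th percentile over 43597 probes was subtracted on each array. No spot was saturated. Accessions, without versions, were matched to the RefSeq table of Sscrofa11.1, which named 5577 probes (12.8%). Probes of a gene were combined by their median. Of 38883 probes with a value, 2224 are bounds, from probes well above background on 1 array. No coordinates are given, since the files name no genome build.

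The 6 members and the 21 gene lists were chosen with earlier results of these data known. Genes named were the members, their receptors and processing enzymes, and the defining cell markers. From each list came the genes past 2-fold (at most 4 each way, else the highest on each array). Also named were the 3 genes closest to the largest member difference, among genes with several probes that all cleared background. Named beside that rule were DCN, IL1B2, CCL8, CYP19A1, RLN2 and PRLR. For 2 genes covered by the rule, no value is reported here.

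Alternatives were normexp background correction (offset 50, on median spot and background signals), median centring, quantile and loess normalization (span 0.3), other filters on dim probes, the brightest probe and other cutoffs. Software was R 4.3.3 (limma 3.58.1) and Python 3.11.15 (numpy 2.4.6, pandas 2.3.3, matplotlib 3.10.9). The steps were tested on simulated data. The number of arrays limits the precision.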

Additional observations from a re-analysis of the deposited data

How the results depend on the processing

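CCL2, IL18 and IL1A moved by less than the SD of repeated spots with normexp and the 4 other ways of centring or normalizing. The filters on dim probes could not move any of the 6 genes. Over all values, list counts and alternatives, 528 recomputed values held within that SD or within 1.5 times the count, 41 moved by more and 3 values past 2-fold changed sign. Part of the 528 could not move, such as the 6 genes under these filters and probe counts under the brightest probe. Median and spike-in centring moved the median of all genes by 0.15 and 0.18, less than that SD. The tally therefore does not measure robustness. Normexp moved IL1B to -2.07 and IL6 to 0.90 and left 1 of the 6 genes past 2-fold on the conventional side, as did a cutoff of 3-fold. It also left 98 genes and 1411 probes past 2-fold on the minipig side, from 188 and 3475. The brightest probe moved TNF to -0.19. With the breeds as the deposited table has them, IL1B was at 2.94, IL6 at -1.24 and CCL2 at -1.81, the reverse direction. The cause of that exchange was not tested.

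In the lists, normexp left 2-fold counts on the minipig side of 3 for chemokines, 1 for induced targets, 1 for heat shock genes and 0 for other cytokines, macrophage and T and NK cell markers. On the conventional side it left 1 for the IL6 system, 1 for neutrophil markers and 0 for other cytokines, macrophage, T and NK cell and platelet markers, and the immediate early median became -0.63. Median and spike-in centring each gave other cytokines 0 on the minipig side and 2 on the conventional side, endothelium 2 on the conventional side and granulosa 5 on the minipig side. Spike-in centring, quantile and loess normalization each gave macrophage markers 2 on the conventional side, and quantile and loess gave endothelium 2. Quantile normalization moved the IL1 and IL18 median to -0.18 and the luteal median to 1.79, and the brightest probe moved the luteal median to 1.85. Other cytokines had 2 on the conventional side with no filter on dim probes and 0 with bounds left out. Leaving out bounds also left 0 macrophage and T and NK cell markers on the minipig side, and the brightest probe 0 T and NK cell markers. Normexp adds an offset that shrinks dim differences by construction. It was also run on median spot signals, so its moves are not put down to the offset alone. The cause of the moves was not tested.

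Naming probes by gene name or description, and a search of promoters for motifs, were not run. Spike-in centring and the cutoffs for the conventional side were chosen after seeing the data. Probes near background, such as that of IL18R1, allow bounds only.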

Other observations

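Other cytokines and growth factors of the immune system were on a list of 45. Of these, 20 had a value, with a median of -0.07, 8 higher on the conventional array and 12 on the minipig array. Past 2-fold was 1 on each side, against 11.7% of all genes on the conventional side and 7.96% on the minipig side. With normexp, 0 were past 2-fold on either side. Median and spike-in centring each gave 0 on the minipig side and 2 on the conventional side. With bounds left out, 0 were past 2-fold on the conventional side. IL7, a lymphocyte growth factor, was at least 2.92-fold to the conventional side, with intensities of 11.7 on the minipig array against 35.6 on the conventional array. TGFB3 was at -1.09, with 1133 and 554. Their summed intensity was 23655 on the minipig array against 41959 on the conventional array, and MIF made up most of both sums, with 19847 and 38911, a difference of 0.92.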
